A study of Mus musculus with 6 samples.

Results

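The metallothioneins, the metal sensor Mtf1 and zinc transporters were followed in mouse germinal vesicle oocytes that lacked maternal Prdm10. By name, 10 genes were chosen out of the 27179 gene identifiers counted, namely Mt1, Mt2, Mt3, Mtf1, Slc30a1, Slc30a5, Slc30a9, Slc39a1, Slc39a6 and Slc39a10. They were selected on the knockout and wildtype counts of Mt1, whose rise was already known, and so the knockout and wildtype values of these 10 genes are given as a description and without a test. The question was whether the rise of Mt1 came with changes in other zinc-responsive genes.

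The oocytes were at the germinal vesicle stage, the stage at which a grown oocyte waits in meiotic prophase. In the knockout group, exon 5 of Prdm10 was flanked by loxP sites and removed by Cre driven from Zp3, a gene that growing oocytes switch on. The other group was wildtype, and whether these mice carried the floxed allele or Cre, as well as the age and strain of all animals, is not given in the sources used here. Each of the 3 knockout and 3 wildtype libraries held RNA of some 10 pooled oocytes. The labels call the pools biological replicates without saying that they came from separate mice, so spreads and p-values measure the differences between these pools. Total counts lay between 33698776 and 37966868 in the knockout libraries and between 22492228 and 38831227 in the wildtype libraries. As a check of the labels, Prdm10 itself had 2.80, 3.82 and 3.05 CPM (counts scaled to library size) in knockout oocytes and 10.4, 23.1 and 22.96 CPM in wildtype oocytes, counted over the whole gene. Wildtype replicate 1 was the library least like the others, with Spearman correlations across genes of at most 0.976 to the other wildtype libraries, which correlated with each other at 0.996.

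Metallothioneins are small, cysteine-rich proteins that bind zinc and copper and so buffer free metal in the cell. When zinc rises, the zinc finger protein MTF1 binds metal response elements in the promoters of Mt1, Mt2 and Slc30a1 and switches them on, and in mouse cells Mt1 and Mt2 usually respond together. Slc39a genes encode ZIP proteins, which bring zinc into the cytosol, and Slc30a genes encode ZnT proteins, which carry it out of the cell or into vesicles and organelles. Mouse oocytes take up zinc while they mature, largely through ZIP6 (Slc39a6) and ZIP10 (Slc39a10), and release part of it when they are fertilized.

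The promoters of Mt1, Mt2 and Slc30a1 are shown because MTF1 is known to act on all 3 genes while their transcripts did not move alike in the knockout. Each window covers 250 bases before and 50 bases after the annotated start site, read 5′ to 3′ along the gene, from RefSeq on GRCm38.p6. Capitals mark the 7-base core of the metal response element, searched as TGCACNC and TGCGCNC on both strands, with overlapping matches counted as 1.
Mt1, chr8:94178839-94179138, plus strand: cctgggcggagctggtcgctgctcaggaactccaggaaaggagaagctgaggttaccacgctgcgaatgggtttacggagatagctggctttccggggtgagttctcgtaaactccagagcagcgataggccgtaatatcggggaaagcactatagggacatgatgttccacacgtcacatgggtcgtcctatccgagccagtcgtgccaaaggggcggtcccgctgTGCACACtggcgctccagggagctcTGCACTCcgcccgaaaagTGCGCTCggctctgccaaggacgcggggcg
Mt2, chr8:94172368-94172667, plus strand: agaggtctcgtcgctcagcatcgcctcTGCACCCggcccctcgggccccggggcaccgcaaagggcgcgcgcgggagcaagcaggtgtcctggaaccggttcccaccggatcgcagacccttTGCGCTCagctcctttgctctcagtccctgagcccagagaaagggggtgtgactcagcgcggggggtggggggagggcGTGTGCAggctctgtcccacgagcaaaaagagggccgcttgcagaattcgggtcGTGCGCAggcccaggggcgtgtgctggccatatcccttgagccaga
Slc30a1, chr1:191906531-191906830, plus strand: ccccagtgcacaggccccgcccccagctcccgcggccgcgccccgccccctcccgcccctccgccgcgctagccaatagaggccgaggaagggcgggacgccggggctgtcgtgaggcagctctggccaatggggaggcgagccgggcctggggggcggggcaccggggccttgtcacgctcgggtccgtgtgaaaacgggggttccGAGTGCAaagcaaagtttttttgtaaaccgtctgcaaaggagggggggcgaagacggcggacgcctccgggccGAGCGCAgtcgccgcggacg

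The Mt1 window held 3 cores, which began at positions -23, 3 and 21 from the start site used for the window. The Mt2 window held 4, at -223, -128, -50 and 5, and the Slc30a1 window held 2, at -43 and 31. For Mt1 and Slc30a1 the start site used lies downstream of the first base of the gene's span (94178883 and 191906697). Positions and numbers of cores therefore depend on the start site chosen. Of 32851 promoter windows of the same length, 25.7% held at least 1 core, 6.14% at least 2, 1.31% at least 3 and 0.295% at least 4. RefSeq windows were matched for 9 of the 10 genes, all but Slc39a6. Mt3 and Slc30a5 also held a core, and no match to these letters lay in the windows of Mtf1, Slc30a9, Slc39a1 or Slc39a10. A match is a description of the letters and does not show that MTF1 was bound there.

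Mt1 (Entrez 17748, GRCm38 chromosome 8, 94178883 to 94180327) was the gene of the 10 with the widest gap between the genotypes. It had 309, 280.1 and 291 CPM in knockout replicates 1 to 3, against 12.3, 1.81 and 2.10 CPM in wildtype replicates 1 to 3. Every knockout library stood far above every wildtype library, and the knockout libraries lay close together while wildtype replicate 1 stood above the other wildtype libraries. The means were 293 ± 14.5 CPM in knockout oocytes and 5.41 ± 5.98 CPM in wildtype oocytes (SD, n = 3 each), a fitted fold change of 52.2 (log2 5.71, SE 0.736). Wildtype replicate 1 left out, the log2 fold change was 7.23, and with any other library left out it lay between 5.30 and 5.71. Behind these levels stood 10484, 10485 and 11000 reads in the knockout libraries, against 513, 47 and 46 reads in the wildtype libraries. By abundance among the 14957 genes tested, Mt1 ranked 605, 691 and 663 in the knockout libraries, against 7866, 11518 and 11313 in the wildtype libraries.

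Mt2 (Entrez 17750, chromosome 8, 94172618 to 94173567), the close relative that lies 6.27 kb upstream of Mt1, stayed scarce in both genotypes. It had 1.09, 0.641 and 0.954 CPM in knockout oocytes, against 2.19, 0.308 and 0.320 CPM in wildtype oocytes. The groups overlapped, because wildtype replicate 1 lay above all knockout libraries and the other wildtype libraries lay below them. The log2 fold change was -0.18 (SE 0.695), and without wildtype replicate 1 it was 1.49. These levels rest on 37, 24 and 36 reads in the knockout libraries, against 91, 8 and 7 reads in the wildtype libraries. Mt2 overlaps an annotated antisense gene, Gm45774, and the strand setting of the counts is not given in the sources used here, so reads from this pair cannot be told apart.

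Set against Mt2 within the same library, Mt1 took a different share of reads in the genotypes. Of the reads counted for Mt1 and Mt2 together, Mt1 held 99.65%, 99.77% and 99.67% in the knockout libraries, with 95% Wilson intervals that ran from 99.52% to 99.85% over the 3 libraries. In the wildtype libraries it held 84.9% (81.9% to 87.6%), 85.5% (73.8% to 92.4%) and 86.8% (75.2% to 93.5%). Wildtype replicate 1 therefore had both genes raised in nearly the same proportion, with Mt1 6.29-fold and Mt2 6.96-fold above the mean of wildtype replicates 2 and 3. The knockout libraries had Mt1 150-fold and Mt2 2.85-fold above that same mean. The intervals cover counting error only.

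**Figure D1:**
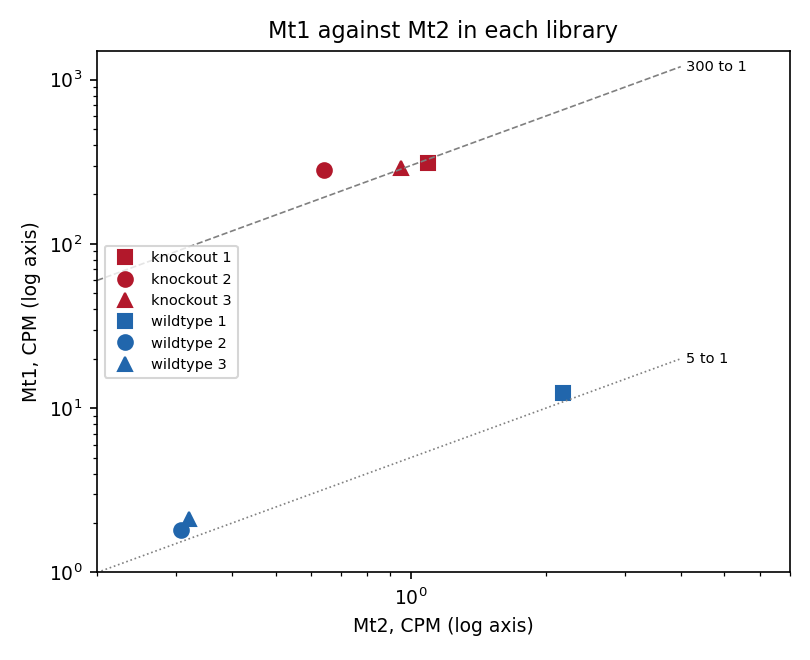
Mt1 level against Mt2 level in CPM, both on log axes, 1 point per library, with grey lines at constant ratios of Mt1 to Mt2 as labelled. The 3 wildtype points follow the lower line, with wildtype replicate 1 farther along it, and the 3 knockout points lie near the upper line at Mt1 levels of 280.1 to 309 CPM.

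The coding sequences of Mt1 and Mt2 are shown because they bear on whether reads of one could have been counted for the other. They are read 5′ to 3′ from GENCODE M21 transcripts of Mt1 (spanning chr8:94179082-94180327, plus strand) and Mt2 (spanning chr8:94172664-94173568, plus strand) without the stop codon, and capitals mark the bases at which they differ.
Mt1: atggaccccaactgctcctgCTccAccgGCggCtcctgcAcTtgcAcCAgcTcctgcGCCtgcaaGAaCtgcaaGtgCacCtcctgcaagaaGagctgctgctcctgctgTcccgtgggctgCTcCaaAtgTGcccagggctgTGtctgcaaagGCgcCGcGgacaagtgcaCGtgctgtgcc
Mt2: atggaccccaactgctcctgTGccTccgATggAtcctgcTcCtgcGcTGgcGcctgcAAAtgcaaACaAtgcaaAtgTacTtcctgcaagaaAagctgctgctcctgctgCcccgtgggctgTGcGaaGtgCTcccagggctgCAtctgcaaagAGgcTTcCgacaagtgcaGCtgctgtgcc

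The 183 coding bases differ at 38 positions, an identity of 79.2%. The longest run of bases that both whole transcripts share is 20 bases, and none of the other genes among 141767 annotated transcripts shares a run of 40 bases with Mt1. For Mt2 such runs occurred in Gm45774 alone.

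Mt3 (Entrez 17751, chromosome 8), a metallothionein best known from the brain, was at or near 0 in both genotypes and had too few reads to be tested. It had 8, 0 and 6 reads in the knockout libraries, against 29, 2 and 5 reads in the wildtype libraries. The count of 0 in knockout replicate 2 allows up to 0.0801 CPM. Mt4 (Entrez 17752), known from stratified epithelia and the fourth gene of the cluster, was not among the 10 genes and had 12.8, 15.3 and 14.8 CPM in knockout oocytes, against 20.6, 7.13 and 9.74 CPM in wildtype oocytes. Its groups overlapped through wildtype replicate 1, and its log2 fold change of 0.18 did not pass the test (SE 0.354, edgeR quasi-likelihood adjusted p = 0.759). Mt4 passed once wildtype replicate 1 was left out, at a log2 fold change of 0.77. In wildtype replicate 1 all 4 metallothioneins were higher than in the mean of the other wildtype libraries, by 6.29-fold for Mt1, 6.96-fold for Mt2, 4.56-fold for Mt3 and 2.44-fold for Mt4.

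Beside Mt1, none of 6 other tested genes within 200 kb passed the test (an adjusted p under 0.05 over all genes), beside 11.2% of all tested genes. Mt3, Mir138-2 and Slc12a3 lay there too and had too few reads for a test. The 6 were Nudt21, a subunit of the cleavage factor of mRNA 3′ ends, Ogfod1, Bbs2, which belongs to the BBSome of cilia, Mt4, Mt2 and Nup93, a scaffold protein of the nuclear pore. None of the 6 had an unadjusted p under 0.05, and none passed with DESeq2 or limma-voom, while 2, Mt2 and Mt4, passed with sample quality weights (39.7% of all genes passed) and likewise without wildtype replicate 1 (34.4% of all genes passed). Nup93, the nearest gene downstream, whose start lies 35.7 kb from that of Mt1, had a log2 fold change of 0.49 (SE 0.416). It had 279.7, 272 and 275 CPM in knockout oocytes, against 71.5, 262 and 258 CPM in wildtype oocytes, so that wildtype replicate 1 was the low library and the genotypes did not overlap. The log2 fold changes of the 6 lay between -0.37 and 0.49, with a median of 0.035, and the median over all tested genes was 0.00.

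**Figure D2:**
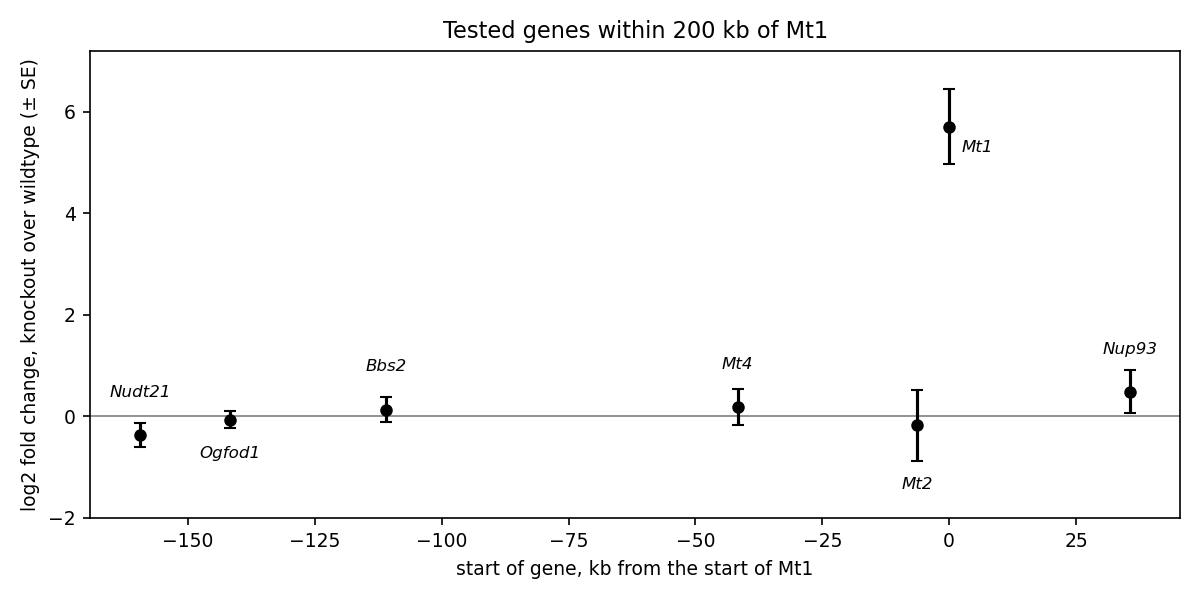
Fitted log2 fold change (knockout over wildtype) with its SE for Mt1 and 6 tested genes within 200 kb of it, against the distance of each gene's start from the start of Mt1 in kb. Mt1 stands at 5.71 and the other 6 genes lie between -0.37 and 0.49.

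Mtf1 (Entrez 17764, chromosome 4), the zinc sensor, was abundant and nearly level. It had 217, 217 and 217 CPM in knockout oocytes, against 232, 239 and 238 CPM in wildtype oocytes. The knockout libraries were all lower than the wildtype libraries, by a small margin (log2 -0.12, SE 0.102). Mtf1 overlaps 1110065P20Rik on the other strand, which had 4.64 CPM in knockout oocytes and 4.95 CPM in wildtype oocytes.

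Slc30a1 (Entrez 22782, chromosome 1), which encodes the zinc exporter ZnT1 of the plasma membrane and is the transporter best known to respond to MTF1, did not rise with Mt1. It had 29.2, 25.9 and 27.7 CPM in knockout oocytes, against 30.7, 41.3 and 38.5 CPM in wildtype oocytes. All knockout libraries lay below all wildtype libraries, of which replicate 1 came closest, and the log2 fold change was -0.41 (SE 0.147). It was -0.53 without wildtype replicate 1. An antisense gene on its other strand, 1700034H15Rik, averaged 0.326 CPM in knockout oocytes and 0.257 CPM in wildtype oocytes.

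The other exporters among the 10 genes had similar levels in the genotypes. Slc30a5 (Entrez 69048, chromosome 13), whose product ZnT5 loads zinc into the secretory pathway, had 127, 118 and 123 CPM in knockout oocytes, against 72.4, 119.7 and 125 CPM in wildtype oocytes. Wildtype replicate 1 was the low library and the other 5 lay together (log2 0.22, SE 0.203). Slc30a9 (Entrez 109108, chromosome 5), whose product ZnT9 is known from mitochondria, had 12.2, 13.4 and 12.4 CPM in knockout oocytes, against 11.2, 11.9 and 13.5 CPM in wildtype oocytes. Its groups overlapped (log2 0.06, SE 0.139).

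The importers Slc39a6 and Slc39a10 were the most abundant ZIP transcripts in every library. Slc39a6 (Entrez 106957, chromosome 18), which encodes ZIP6, had 435, 426 and 419 CPM in knockout oocytes, against 274, 356 and 332 CPM in wildtype oocytes. All knockout libraries lay above all wildtype libraries, and the log2 fold change was 0.41 (SE 0.130), or 0.31 without wildtype replicate 1. Slc39a6 overlaps Elp2 on the other strand, which averaged 788 CPM in knockout oocytes and 525 CPM in wildtype oocytes (log2 0.59, edgeR quasi-likelihood adjusted p = 0.0831). Slc39a10 (Entrez 227059, chromosome 1), which encodes ZIP10 and which MTF1 is known to repress, had 369, 396 and 423 CPM in knockout oocytes, against 278, 479.9 and 452 CPM in wildtype oocytes. The groups overlapped, with the lowest and the highest library both wildtype (log2 -0.03, SE 0.204). Slc39a1 (Entrez 30791, chromosome 3), which encodes the plasma membrane importer ZIP1, was scarce, with 0.472, 0.534 and 0.344 CPM in knockout oocytes, against 0.889, 0.308 and 0.366 CPM in wildtype oocytes, and the groups overlapped.

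**Figure D3:**
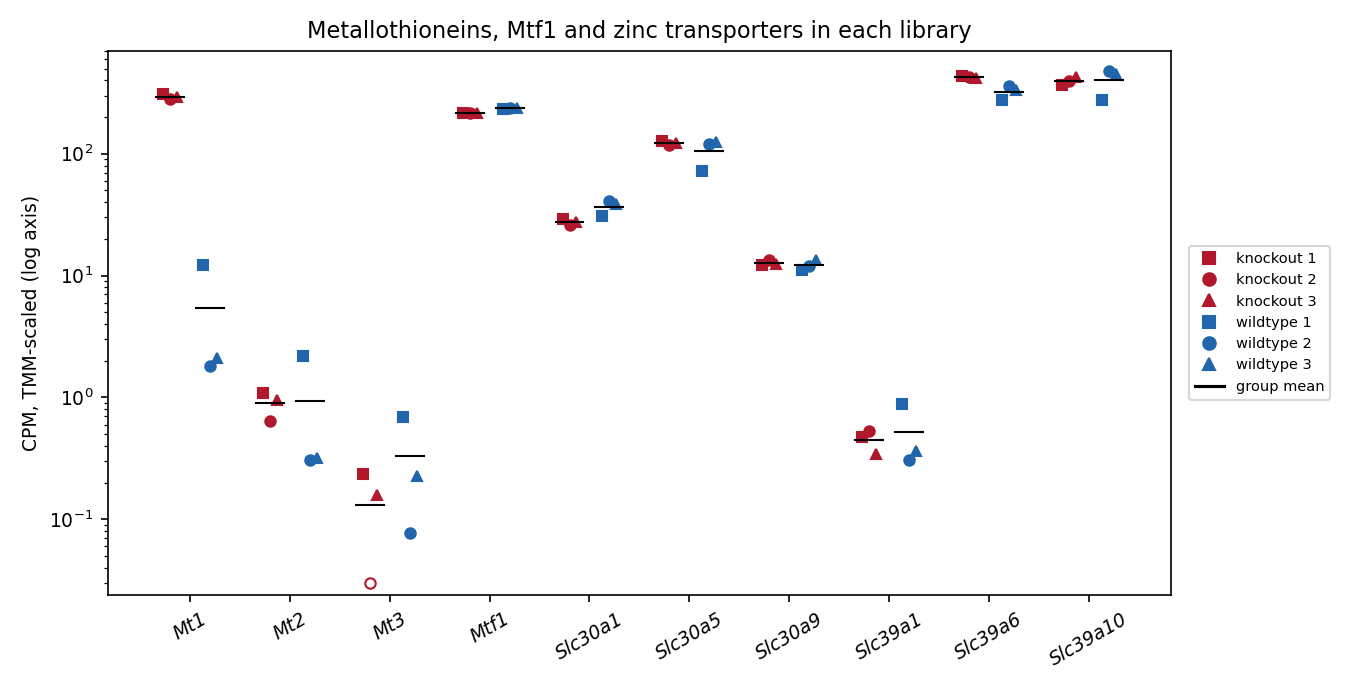
Level of the 10 genes in each library, in CPM on a log axis, with knockout libraries in red left of wildtype libraries in blue and black bars at the group means. The open circle at the lower edge is the count of 0 for Mt3 in knockout replicate 2. Mt1 has 280.1 to 309 CPM in knockout and 1.81 to 12.3 CPM in wildtype libraries, while the other 9 genes lie at similar heights in the genotypes.

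Of the 10 genes 9 had enough reads to enter the fit across all genes, in which 11.2% of all tested genes passed the threshold (5.87% higher and 5.34% lower in knockout oocytes). Mt1 was the 1 gene of the 9 that passed, and since its rise guided the choice of the genes nothing is read from that count. The genotypes did not overlap for 4 of the 9, namely Mt1 and Slc39a6 above and Mtf1 and Slc30a1 below, while this held for 40.2% of all tested genes (19.2% with the knockout libraries below). The median log2 fold change of the 9 was -0.03. When wildtype replicate 1 was left out, 34.4% of all genes tested passed, and 5 of the 9 were among them. Mt1, Mt2 and Slc39a6 were then higher, and Slc30a1 and Slc39a10 lower in knockout oocytes.

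Levels of different genes were also set per kilobase of principal transcript, which adjusts for the annotated length only. The transcripts used in oocytes and the recovery of short ones were not measured. On this scale Mt1 led the metallothioneins and zinc transporters in knockout oocytes at 535 ± 26.5 CPM per kb (SD, n = 3 libraries here and below). In wildtype oocytes it stood at 9.86 ± 10.9 CPM per kb. Slc30a3, which encodes the vesicular zinc transporter ZnT3 known from synaptic vesicles, was next in knockout oocytes at 257 ± 7.59 CPM per kb and led in wildtype oocytes at 172 ± 79.5 CPM per kb. Slc39a6 followed at 109.8 ± 2.05 CPM per kb in knockout and 82.7 ± 10.9 CPM per kb in wildtype oocytes, and Slc39a10 at 72.0 ± 4.85 CPM per kb in knockout and 73.4 ± 19.9 CPM per kb in wildtype oocytes. The ranges of Slc39a6 and Slc39a10 did not overlap within the knockout group and overlapped within the wildtype group. Within each library, however, Slc39a6 stood above Slc39a10. In wildtype replicates 1 to 3 it had 70.7, 91.8 and 85.5 CPM per kb, against 50.6, 87.3 and 82.3 for Slc39a10. Slc30a5, Mt4 and Mtf1 came next, with 38.7, 35.9 and 28.5 CPM per kb in knockout and 33.3, 31.4 and 31.0 CPM per kb in wildtype oocytes, and in wildtype oocytes these 3 had overlapping ranges.

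The rest of both transporter families did not share one direction. Of the 18 ZnT and ZIP genes outside the chosen set, 14 were tested, 1 rose, 2 fell and 11 did not pass, a share of 3 in 14 beside the 11.2% of all tested genes. Their median log2 fold change was 0.21, against 0.00 over all tested genes. Slc30a2, which encodes ZnT2, an exporter known from the zinc of milk, fell, with 10.6, 10.02 and 9.67 CPM in knockout oocytes against 16.5, 16.4 and 14.8 CPM in wildtype oocytes. The genotypes did not overlap and the fall was 1.57-fold (log2 -0.65, SE 0.130, edgeR quasi-likelihood adjusted p = 0.0209). Slc39a3, which encodes the importer ZIP3, fell 1.83-fold, with 2.15, 2.46 and 2.28 CPM in knockout oocytes against 4.15, 4.35 and 4.12 CPM in wildtype oocytes (adjusted p = 0.0192, edgeR quasi-likelihood test). Slc39a4, which encodes ZIP4, the importer of dietary zinc in the intestine, rose 3.39-fold but was scarce, with 2.18, 1.36 and 1.67 CPM in knockout oocytes against 0.768, 0.193 and 0.503 CPM in wildtype oocytes (adjusted p = 0.0397, edgeR quasi-likelihood test).

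Slc30a4, whose product ZnT4 resides in endosomes and lysosomes, had 59.6, 51.2 and 56.7 CPM in knockout oocytes against 64.8, 79.4 and 76.3 CPM in wildtype oocytes, without overlap, and did not pass (log2 -0.40, SE 0.130, edgeR quasi-likelihood adjusted p = 0.0906). Slc30a3 had 549, 542 and 519 CPM in knockout oocytes, against 237, 292 and 548 CPM in wildtype oocytes. The genotypes overlapped through wildtype replicate 3 (log2 0.58, SE 0.285, edgeR quasi-likelihood adjusted p = 0.224), and Slc30a3 passed when that library was left out. None of the 3 calls held when any 1 knockout library or wildtype replicate 2 was left out, with 0 called in each of those fits. Calls over all genes fell there too, from 1676 to 380, 357 and 400 without knockout replicates 1 to 3. Without wildtype replicate 2 they fell to 910. Of the transporters, 4 were called without wildtype replicate 1 (beside 34.4% of all genes). Without wildtype replicate 3, 2 were called (beside 927 of all genes). Summed over the 10 exporters, levels were 771 to 809 CPM in knockout and 452 to 840 CPM in wildtype libraries. Slc30a3 alone gave 519 to 549 CPM of this sum in knockout and 237 to 548 CPM in wildtype libraries. Summed over the 14 importers, levels were 878 to 903 CPM in knockout and 600 to 895 CPM in wildtype libraries.

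**Figure D4:**
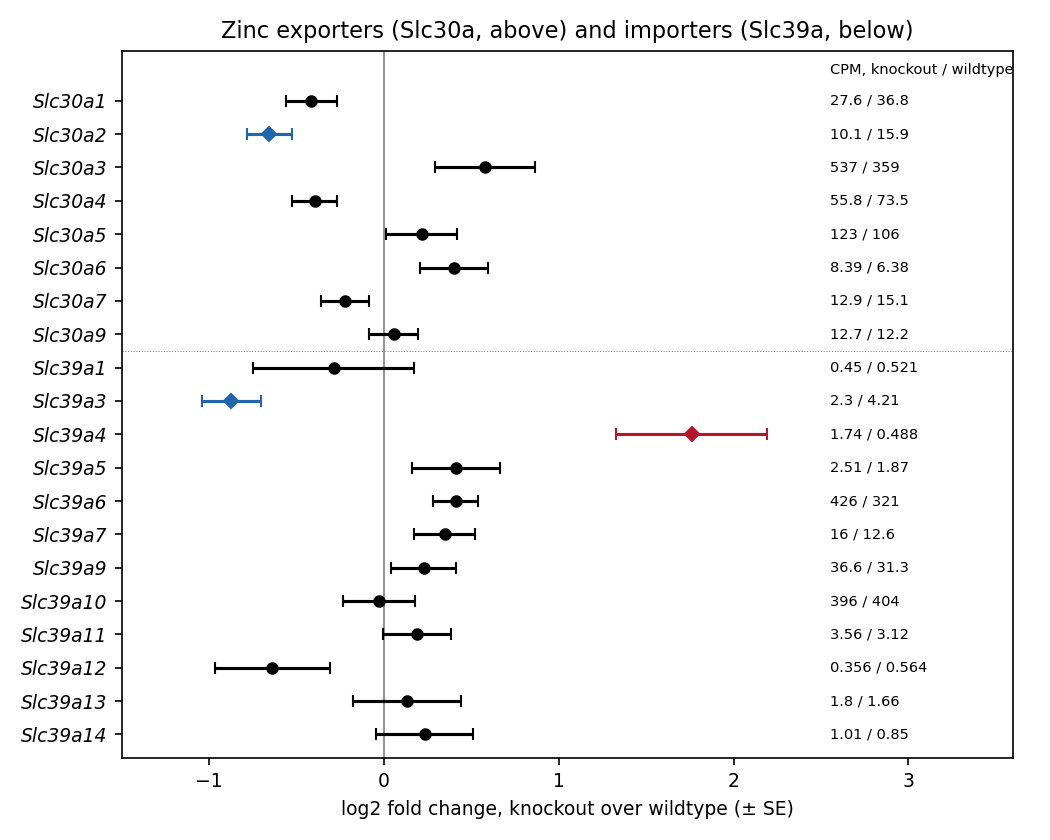
Fitted log2 fold change (knockout over wildtype) with its SE for the 8 exporter and 12 importer genes tested, with the mean CPM of knockout and wildtype libraries at the right. Red and blue diamonds mark genes that passed the test, 1 higher (Slc39a4) and 2 lower (Slc30a2 and Slc39a3), and black circles the other genes.

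Most genes linked to MTF1 did not pass the test, and neither did most of all tested genes. The list held 7 genes (Mtf1, Mt1, Mt2, Slc30a1, Slc39a10, Gclc and Selenow), of which 5 belong to the chosen set and Mt1 passed as the gene that guided the choice. Of the other 6, 0 rose, 1 fell and 5 did not pass, while 11.2% of all tested genes passed. Selenow, which encodes a small selenoprotein, fell 58.5-fold, with 3.86, 1.82 and 2.22 CPM in knockout oocytes against 194, 137 and 130.1 CPM in wildtype oocytes (log2 -5.87, SE 0.333, edgeR quasi-likelihood adjusted p = 0.000164). Gclc, the catalytic subunit of glutathione synthesis, had 23.9, 21.7 and 24.1 CPM in knockout oocytes against 10.95, 17.4 and 17.3 CPM in wildtype oocytes, without overlap, and did not pass (log2 0.61, adjusted p = 0.0844, edgeR quasi-likelihood test). The median log2 fold change of the 7 was -0.12. With wildtype replicate 1 left out, which brought 34.4% of all genes past the threshold, 3 were higher and 3 lower: Mt1, Mt2 and Gclc higher and Selenow, Slc30a1 and Slc39a10 lower. MTF1 is known to repress Slc39a10, and the list also holds Mtf1 itself. Counts of higher and lower genes and the median therefore do not measure a shared direction.

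Among 11 tested genes that metals and oxidants are known to induce, 1 rose, 1 fell and 9 did not pass, beside 5.87% higher and 5.34% lower among all tested genes. Hmox1, the haem-degrading enzyme haem oxygenase 1, rose 7.09-fold, with 5.54, 5.10 and 4.34 CPM in knockout oocytes against 0.624, 0.809 and 0.686 CPM in wildtype oocytes (log2 2.83, SE 0.219, edgeR quasi-likelihood adjusted p = 0.000549). The genotypes stood well apart, at low levels in both. Slc7a11, the cystine importer, fell, with 164, 164 and 178 CPM in knockout oocytes against 277, 242 and 241 CPM in wildtype oocytes (log2 -0.58, SE 0.116, edgeR quasi-likelihood adjusted p = 0.0206). The heat shock gene Hsph1 had 288, 302 and 272 CPM in knockout oocytes against 167, 202 and 239 CPM in wildtype oocytes and did not pass (log2 0.51, edgeR quasi-likelihood adjusted p = 0.0697). The median of the 11 was 0.01. The call of Slc7a11 was lost without any 1 knockout library or without wildtype replicate 2 or 3. Those fits called 357 to 927 of all genes, against 1676 with all libraries. Without wildtype replicate 1, 7 genes of the list, 5 of them higher, passed, as did 34.4% of all genes.

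Copper, which also binds metallothioneins, has its own transporters and chaperones. Of 12 such genes 10 were tested and 0 passed in edgeR's quasi-likelihood test, beside 11.2% of all tested genes. Of the 10, 3 had an unadjusted p under 0.05, and 0 passed with DESeq2, 0 with limma-voom and 7 with sample quality weights, with which 39.7% of all genes passed. The 3 with the smallest p were Commd1, a regulator of copper export (log2 -0.45), Cox17, which delivers copper to cytochrome oxidase (-0.36), and Sco1, which acts in the same delivery (0.43). A fit without wildtype replicate 1 called 2 higher and 4 lower, and 34.4% of all genes. The median log2 fold change of the 10 was -0.18.

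Glucocorticoids are also known to induce Mt1 and Mt2. A list of 9 tested genes held their receptor, Nr3c1 (log2 -0.33), and genes that they are known to induce elsewhere. Of these 9, 0 rose, 1 fell and 8 did not pass, a share near the 11.2% of all tested genes. The median log2 fold change was 0.18. Errfi1, an inhibitor of the EGF receptor, fell, with 179, 162 and 166 CPM in knockout oocytes against 260.0, 251 and 251 CPM in wildtype oocytes (log2 -0.59, SE 0.107, edgeR quasi-likelihood adjusted p = 0.0154). Its call was lost without any 1 knockout library or without wildtype replicate 3. Those fits called 357 to 927 of all genes, against 1676 with all libraries. In the fit without wildtype replicate 1, which called 34.4% of all genes, 4 were called, 2 higher and 2 lower.

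**Figure D5:**
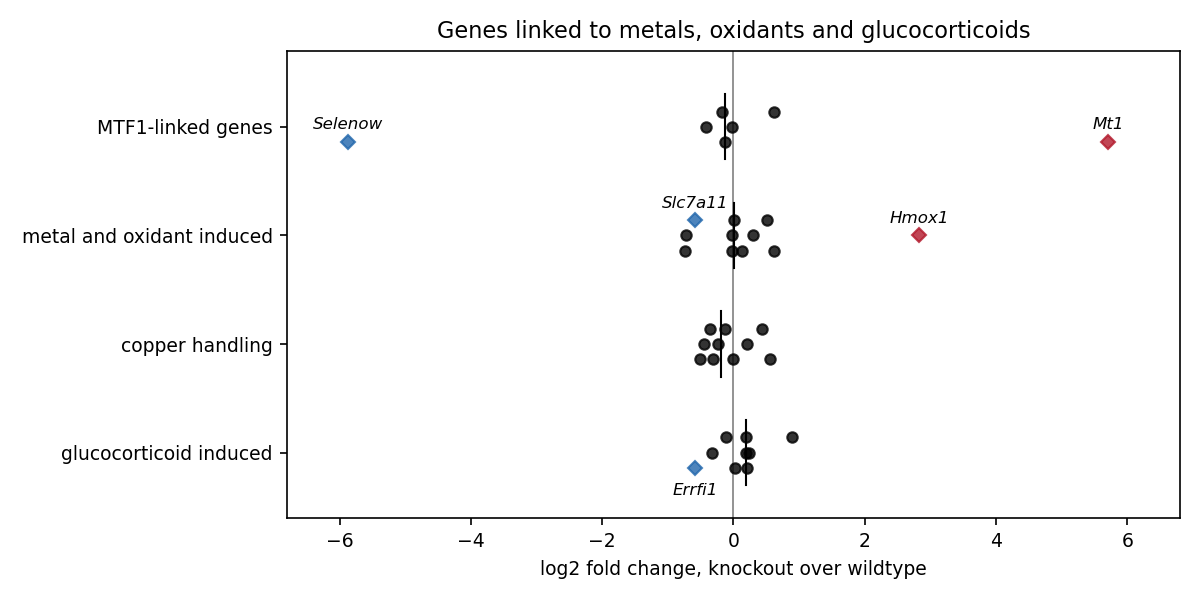
Fitted log2 fold change (knockout over wildtype) of the tested genes of 4 lists, 1 point per gene, with black bars at the list medians. Coloured diamonds mark genes that passed the test, red where higher and blue where lower, and Mt1 (5.71) and Selenow (-5.87) lie farthest from 0.

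The genes whose pattern was most like that of Mt1 were sought by Pearson's r of log2 CPM over the 6 libraries, among genes of at least 10 CPM in a genotype. The 5 highest were Ccdc113, Ftl1 (ferritin light chain), Zfand3, Tmod4 and Gpx1 (glutathione peroxidase 1), with r between 0.996 and 0.998. In all 5 the order was knockout, then wildtype replicate 1, then the other wildtype libraries. Ftl1 had 30.8, 27.8 and 28.8 CPM in knockout oocytes, against 7.76, 4.20 and 4.67 CPM in wildtype oocytes. Gpx1 had 47.9, 47.9 and 49.96 CPM in knockout oocytes, against 25.1, 18.9 and 17.2 CPM in wildtype oocytes. The 5 genes were picked for this likeness in the same libraries, and their log2 fold changes, from 0.86 to 2.38, were smaller than that of Mt1. Copies of Ftl1 that are nearly identical in sequence may share its reads.

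All 10 oocyte markers, Zp3 and Gdf9 among them, were abundant in all libraries. Of the 10, 0 rose, 1 (Mos) fell and 9 did not pass, beside 11.2% of all tested genes that passed. The knockout libraries lay above all wildtype libraries for 1 (Nlrp5) and below for 3 (Oosp1, Ooep and Mos). Over all tested genes 40.2% did not overlap. Bmp15 had 2106 CPM in wildtype replicate 1, against 5606 and 5370 CPM in wildtype replicates 2 and 3. Cells around the oocyte also express metallothioneins, and in pools a share of such cells and the RNA per oocyte cannot be told apart. Of 16 granulosa and cumulus markers 14 were tested and 0 passed the test in edgeR (3 at an unadjusted p under 0.05, 0 with DESeq2 or limma-voom and 6 with sample quality weights, where 39.7% of all genes passed), Ptx3 was at 0 in every library, and their sum was 463 to 498 CPM in knockout and 269 to 420 CPM in wildtype libraries. The markers took 0.0480 ± 0.00146% of counts in the knockout libraries and 0.0366 ± 0.00678% in the wildtype libraries (SD, n = 3 each). A two-sided exact permutation test gave p = 0.1, which 3 against 3 libraries cannot go below. Serpine2 made up most of the sum, and the rest came to 78.2 to 90.8 CPM in knockout and 86.2 to 95.2 CPM in wildtype libraries. None of the 4 theca and stroma markers tested passed in edgeR (1 at an unadjusted p under 0.05, 0 with DESeq2 or limma-voom). With sample quality weights, where 39.7% of all genes passed, 1 of them did. The sum of all 9 theca and stroma markers was 6.93, 7.16 and 18.4 CPM in the knockout libraries, against 21.1, 6.01 and 5.03 CPM in the wildtype libraries. Cyp11a1, a steroidogenic enzyme, made up 11.05 CPM of it in knockout replicate 3 and 11.4 CPM in wildtype replicate 1, the library with the highest sum in each genotype. Of 9 blood, immune and endothelial markers, 2 were at 0 in all libraries, 3 were tested and 1, the macrophage marker Cd68, rose (log2 2.28, edgeR quasi-likelihood adjusted p = 0.0108). This call was lost without any 1 knockout library (adjusted p of 0.0522 to 0.0628 in edgeR). Those fits called 357 to 400 of all genes, against 1676 with all libraries. Other leukocyte and macrophage markers, Ptprc, Lyz2 and Adgre1, had too few reads to be tested. They reached at most 0.344, 0.291 and 0.0534 CPM in any library, and their groups overlapped. The sum of the 9 was 117 to 121 CPM in knockout and 36.6 to 82.3 CPM in wildtype libraries, most of it from Pecam1, with 103 to 105 CPM in knockout and 30.4 to 75.7 CPM in wildtype libraries. Of the other endothelial markers, Cdh5 was at 0 in every library, and Kdr overlapped between the genotypes and did not pass (log2 0.14, SE 0.300). The part of these cells in the levels of Mt1 was not tested.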

How the data were processed

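RNA was counted in 6 libraries of pooled germinal vesicle oocytes, 3 knockout and 3 wildtype, grouped by the labels. Per the labels' protocols, cDNA came from the SMARTer Ultra Low Input kit and libraries from NexteraXT, sequenced single-end. STAR 2.7.11a, featureCounts 2.0.3 and GRCm38.p6 (mm10) are named in the submitters' processing notes. Not given in the sources used here are the annotation, the strand setting and how multi-mapping reads were handled. The authors deposited whole-number counts per Entrez gene, used here as raw counts. RefSeq named 25275 of 27179 identifiers and gave the coordinates (1-based).

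Genes were kept with edgeR's filterByExpr (a minimum count of 10), which left 14957, and scaled by TMM. Genotype was tested over all of them with edgeR 4.0.16's quasi-likelihood test and Benjamini-Hochberg adjustment in R 4.3.3, with a call at adjusted p under 0.05. CPM values were computed here from the deposited counts, and a count of 1 was worth 0.0258 to 0.0445 CPM before scaling. SE is the absolute log2 fold change over the square root of F. The floor is 3 counts. The code was tested on simulated data. Libraries of a group differed by more than sampling noise (chi-square per degree of freedom of at least 4.44).

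The genes and lists were chosen with earlier results of these data known, so none of their patterns is independent support. Named were the 10 genes, the genes within 200 kb of Mt1 (1 is not reported here and is left out of their counts), called list members (up to 6 a list) or those with the 3 smallest p, and the 5 genes most like Mt1 (prior count 1; predicted genes and pseudogenes left out). Slc30a3, Slc30a4, Gclc, Hsph1, Fbxo43 and overlapping genes were named after their values were seen. Lengths were those of the longest principal GENCODE M21 transcript. Alternatives were DESeq2 size factors, library totals, no filter, 5 CPM in 3 libraries, DESeq2 1.42.0, limma-voom (limma 3.58.1) with and without sample weights, the replicate number as a block, and each library left out. The level of granulosa markers without Serpine2 was added after the data were seen.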

Additional observations from a re-analysis of the deposited data

How the results depend on the processing

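The log2 fold change of Mt1, the gene that guided the choice, ranged from 5.30 to 7.23 over the 14 alternatives. The number of genes called, 1676 of 14957 tested, was 1038 of 9917 tested with a filter of 5 CPM in 3 libraries. It was 2671 with DESeq2, 5943 with sample quality weights and 357 to 5199 with a library left out. The members called, 1, were 2 with library totals and with DESeq2 (Mt1 and Slc39a6), 5 with sample weights and 1 to 5 with a library left out. The other zinc transporters called, 3 of 14 tested, were 1 of 7 tested with the filter of 5 CPM, which removed Slc39a3 and Slc39a4. They were 5 with sample weights and 0 to 4 with a library left out. With sample weights and with a library left out, the MTF1-linked genes called, 2, were 6 and 2 to 6. The copper genes called, 0, were 7 and 0 to 6, the glucocorticoid genes, 1, were 4 and 0 to 4, and the genes near Mt1, 1, were 3 and 1 to 3. The metal and oxidant genes called, 2 of 11 tested, were 1 of 8 tested with the filter of 5 CPM, which removed Hmox1. They were 5 with DESeq2, 8 with sample weights and 1 to 7 with a library left out. The upper end of each of these ranges came without wildtype replicate 1. Why it did was not tested.

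Signs that turned were those of Mt2 (0.29 with limma-voom, 1.23 with sample weights, -0.59 to 1.49 with a library left out, the last without wildtype replicate 1), Slc39a10 (0.012 with limma-voom, -0.24 to 0.11 with a library left out), Slc30a9 (-0.0053 to 0.14 with a library left out), Slc39a1 (0.34 with sample weights, -0.56 to 0.42 with a library left out), Mt4 (-0.10 to 0.77 with a library left out), Ogfod1 (-0.18 to 0.027 with a library left out) and Bbs2 (-0.13 with sample weights, -0.13 to 0.34 with a library left out). The causes were not tested.

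Same-numbered libraries did not deviate together (r of -0.0553, 0.0103 and -0.0915 for numbers 1 to 3), so the numbers were not taken as pairs. With the replicate block 537 genes were called among all tested, 1 among the members (Mt1), 1 among the other zinc transporters (Slc39a4), 1 among the metal and oxidant genes (Hmox1) and 0 among the glucocorticoid genes, and the log2 fold changes of Mt2 and Slc39a10 were 0.29 and 0.0096 under the block. Levels under about 1 CPM, those of Mt2, Mt3, Slc39a1 and Slc39a4 in part, rest on few reads.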

Other observations

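Zinc also acts on the cell cycle of the oocyte, where the zinc-binding protein EMI2 (Fbxo43) holds the egg in arrest. Fbxo43 had 199, 209.96 and 203 CPM in knockout oocytes, against 102, 255 and 231 CPM in wildtype oocytes, with the lowest and the highest library both wildtype. Of a list of 5 genes of zinc entry and egg activation (Trpm7, Tmem163, Fbxo43, Cdc20 and Mos) 0 rose, 1 fell and 4 did not pass, beside 11.2% of all tested genes that passed and 5.34% that fell. Mos, the kinase that starts the MAPK cascade of the maturing oocyte, had 564, 720.2 and 701 CPM in knockout oocytes, against 1083, 972 and 991 CPM in wildtype oocytes. It fell 1.53-fold (log2 -0.62, SE 0.133, edgeR quasi-likelihood adjusted p = 0.0274). The call was lost without any 1 knockout library or without wildtype replicate 2 or 3 (adjusted p of 0.0613 to 0.112 in edgeR). Those fits called 357 to 927 of all genes, against 1676 with all libraries.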
